A study of Homo sapiens with 2 samples.

Results

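Genes that encode solute carriers (SLC) and ATP-binding cassette (ABC) transporters were described by their N6-methyladenosine (m6A) in HEK293T cells, a transformed human embryonic kidney line. A gene was a member if its listed name began with SLC and a digit, or with ABC, the letter A, B, C, D or G and a digit, and did not end in P and digits, as names of processed copies do. This rule found 203 of 11406 named genes listed in either of 2 replicates, 187 of them SLC names from 45 numbered families and 16 ABC names. Most were carriers, but 5 were antisense RNAs, 2 were transcribed pseudogenes (SLC6A10P and ABCA17P), and 5 were proteins named after a carrier (SLC4A1AP, SLC7A6OS, SLC9A3R1, SLC9A3R2 and SLC2A4RG). The study used GLORI, in which glyoxal and nitrite deaminate unmethylated adenosine so that it is sequenced as G, and a methylated adenosine still gives A. The share of A among the A and G reads at a position is its methylation level. The labels describe 1 group, wild-type (WT) cells at Day 0 with GLORI+ treatment, in 2 replicates of oligo(dT)-selected mRNA, and the series gives the description and evaluation of the method as its purpose. No second condition and no library without GLORI treatment was analysed here, so the comparisons were between replicates, between sites and between genes, and whether the replicates came from separate cultures is not stated. The site lists hold no expression values, so the cell line was not checked against marker genes.

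Solute carriers move amino acids, sugars, ions, nucleotides and metabolites across membranes by facilitated diffusion or by coupling to an ion gradient, whereas ABC transporters spend ATP to move lipids, porphyrins, drugs and other substrates. The kidney is rich in both. In mRNA, m6A is placed mainly in the DRACH motif (A, G or T, then A or G, then the methylated A, then C, then A, C or T), often near the stop codon and in long internal exons, and it is known to influence mRNA decay and translation. A related form, N6,2'-O-dimethyladenosine, is known at the first transcribed nucleotide of many mRNAs. It also carries the N6-methyl group.

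Sequence was read around the 12 member sites, found in both replicates, that lay inside a RefSeq promoter window (GRCh38.p14, 250 bases before to 50 after an annotated start) with at least 10 bases on either side. They were chosen after their values were seen and are shown because they are the only member sites whose bases could be read here, and they set sites at an annotated first nucleotide beside sites in the motif. Each line gives 21 bases 5′ to 3′ on the strand of the site, written as DNA, with the site in the middle of the 5 capital letters.
SLC50A1 (chr1:155135842-155135862, plus strand): gggctgcaGTAGGtcccggca
SLC37A4 (chr11:119029433-119029453, minus strand): agatctggGAACTgtgagagc
SLC38A2 (chr12:46372761-46372781, minus strand): gctgctccACAGCcgcgcgac
SLC38A2 (chr12:46372763-46372783, minus strand): gggctgctCCACAgccgcgcg
SLC25A21-AS1 (chr14:37172705-37172725, plus strand): gtcaaactAGACGgttgcctc
ABCD4 (chr14:74302924-74302944, minus strand): gctgggctCCAGAgtccctcg
SLC24A1 (chr15:65624119-65624139, plus strand): gttactccGGACAaagcggct
SLC1A5 (chr19:46788584-46788604, minus strand): aaacgggcTCAGAgccacgcg
SLC25A1 (chr22:19178755-19178775, minus strand): ccctgggaCCATAaccggccg
SLC4A7 (chr3:27484374-27484394, minus strand): cggttcgcTCAGTtctagctt
SLC22A5 (chr5:132369970-132369990, plus strand): ggcatgcgGGACTacgacgag
SLC25A27 (chr6:46653015-46653035, plus strand): tccagctgGGACTgctaggaa
The adenosine lay exactly at an annotated first nucleotide in 5 of them (SLC1A5, SLC38A2, ABCD4, SLC4A7 and SLC50A1), and at none of these was the motif present. In SLC50A1 this annotated start lies inside the gene, at nucleotide 478 of the annotated span. SLC1A5, the glutamine exchanger ASCT2, kept the A there in 69.1% of the 55 reads of replicate 1 and 80.3% of the 61 reads of replicate 2. The first nucleotide of SLC38A2, a sodium-coupled neutral amino acid carrier, had 25.6% and 27.5%, and the A 2 nt further on had 15.5% and 15.1%. ABCD4, which takes part in lysosomal cobalamin export, had 11.8% and 13.95%. SLC4A7, a sodium bicarbonate cotransporter, had 14.3% and 16.1%, and SLC50A1, a sugar carrier, 17.1% and 16.7%. Among these first nucleotides SLC1A5 stood alone, its 95% Wilson interval (66.4 to 81.99%) lying above the other intervals, the highest of which ended at 36.9% (SLC38A2).

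The DRACH motif was present at 4 of the 12 member sites, in SLC37A4, SLC24A1, SLC22A5 and SLC25A27, at levels from 56.04 to 89.5%. The other 8 lay between 12.9 and 74.7%, so the ranges overlapped. SLC37A4, the glucose 6-phosphate carrier of the endoplasmic reticulum, had 69.2% in replicate 1 and 42.9% in replicate 2. SLC24A1, a sodium-calcium-potassium exchanger, had 61.9% and 64.3%, and SLC22A5, the carnitine carrier OCTN2, had 66.7% and 60.7%. SLC25A27, a mitochondrial carrier also called UCP4, had 90.7% (54 reads) and 88.2% (51 reads) at a GGACT. Outside the motif, the site of the mitochondrial citrate carrier SLC25A1, which lay upstream of its annotated start, had 26.1% and 37.9%. The sites of SLC24A1, SLC22A5 and SLC25A27, and that of the antisense RNA SLC25A21-AS1, were read from the window of another gene on the opposite strand. Of the sites of other genes in such windows, 540 of 1293 sites (41.8%) held the motif, with a median level of 42.9% against 25.7% without it. Of all adenosines in the 35116 RefSeq windows, 7.24% stood in the motif on the strand of the gene.

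In all, replicate 1 listed 1289 sites in 180 members and replicate 2 1473 sites in 203. All members of replicate 1 were among those of replicate 2. Coverage of a member site ran from 15 to 1665 reads (median 41) in replicate 1, and to 1943 (median 43) in replicate 2. The smallest values in the lists were 5 A reads, 15 reads in all and a level of 10%, so a member without an entry may lack methylation, depth or expression, and thinly covered members can show only their more methylated sites. Conversion of adenosine as deposited for the members had a median of 97.6% in replicate 1 and 97.7% in replicate 2, and was at least 92.5% in both.

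Both replicates listed 1080 sites, called shared below, in 170 members. These were 83.8% of the member sites of replicate 1 and 73.3% of those of replicate 2. At shared sites the levels of the replicates differed by a median of 4.97 percentage points, and correlated across sites at r = 0.947 (Pearson) and rho = 0.941 (Spearman, n = 1080 sites, which share libraries and are not independent). Fisher's exact test, two-sided, with Benjamini-Hochberg adjustment over all 60462 shared sites, separated the replicates at 0 member sites, beside 0 (0%) of all sites. With medians of 41 and 43 reads per listed member site, this test can miss large differences at single sites. At an unadjusted p under 0.05 there were 40 (3.7%), beside 3.06% of all sites. The widest gap was in SLC16A10, where position 111222439 of chromosome 6 had 42.9% of 21 reads and 83.3% of 18 (Fisher's exact test, adjusted p = 1). The mean chi-square of the difference was 0.931 at member sites, so at shared sites the replicates differed by less than the sampling noise, and they were counted as 1 sample. Shared sites are selected for being listed in both, which favours agreement: 209 member sites listed only in replicate 1 and 393 listed only in replicate 2 are outside this comparison. Levels are given for each replicate, or as their mean with a counting standard error (SE), and each interval for a single site is the 95% Wilson interval of both replicates' reads together. Both errors cover counting error only.

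Levels in transporter genes lay close to those of all genes. Each gene was given the average level of its shared sites. The median of the 170 members was 48.3% (quartiles 38.6 and 59.4%), and that of all 9521 genes with a shared site was 46.6%. Members had a median of 5 shared sites, with quartiles of 2 and 8, against 4 in all genes. A single shared site was seen in 25 members (14.7%), against 23.5% of all genes, and at least 10 in 35 (20.6%), against 19.1%. Among single sites, 21.1% of member sites were methylated at 80% or more (95% Wilson interval 18.8 to 23.6), against 20.1% in other genes. Under 20% lay 14.4% (12.5 to 16.7), against 15.2%. In both cases the share in other genes lay inside the interval of the member sites.

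Depth differs between genes and moves with both measures, so each member was set against the median of its class of gene coverage, the authors' depth value, in 10 classes of equal size over all genes. Members with more shared sites than their class median numbered 91 of 170 (53.5%, 95% Wilson interval 46.04 to 60.9), beside 45.1% of all genes, and 59 had fewer, beside 43.6%. The level was above the class median in 95 (55.9%, interval 48.4 to 63.1) and below it in 75, each beside 50% of all genes. At a coverage of at least 50 reads in each replicate, members with more sites made up 43%, beside 41.6% of all genes, which is near the background. Across members the level was lower at higher gene coverage (Spearman rho = -0.3, n = 170 genes, against -0.418 over all genes). Their number of sites was larger at higher coverage (rho = 0.379, against 0.131). Genes share both libraries, and a level and a coverage come from the same reads.

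**Figure D1:**
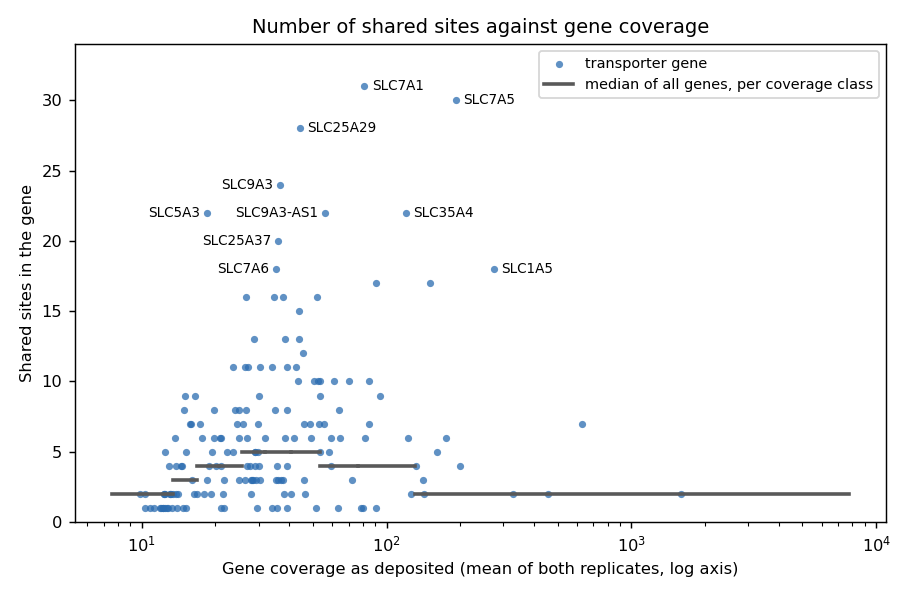
Number of shared sites (y axis) against deposited gene coverage (x axis, log scale, mean of both replicates) for the 170 transporter genes with a shared site; grey bars are medians of all genes in each coverage class. The 10 labelled genes, with 18 to 31 sites, stand far above the bars, whereas many members lie at 1 to 5.

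The 10 members with most shared sites held 235 of the 1080 (21.8%). They were the amino acid carriers SLC7A1, SLC7A5, SLC1A5 and SLC7A6, the mitochondrial carriers SLC25A29 and SLC25A37, the sodium-proton exchanger SLC9A3 and its antisense RNA SLC9A3-AS1, SLC35A4 of the nucleotide sugar family and the inositol carrier SLC5A3. No transcript length entered these counts, so they do not compare density.

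Of 427 annotated protein-coding genes whose symbols fit the naming rule, 205 (48.01%, interval 43.3 to 52.7) had a listed site under their RefSeq symbol or an older name, against 48.6% of all 20056. The shares of annotated genes listed in each class below stand beside this background and were not tested.

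Amino acid carriers included the members with most sites. Of 61 annotated protein-coding genes in their families (SLC1, SLC3, SLC6, SLC7, SLC36, SLC38 and SLC43), 26 (42.6%) had a listed site, against 48.6% of all genes, and 20 names had 149 shared sites. Their median level was 45.3%, with 10 above and 10 below their coverage class, each beside 50% of all genes. SLC7A5, the light chain of the LAT1 exchanger of large neutral amino acids, had 30 sites at a mean of 49.4% in replicate 1 and 49.5% in replicate 2 (49.4% ± 0.43, SE). The median number of sites in its coverage class was 2, and the median level 31.02%. All but 2 of its sites lay in the last 10% of the gene on chromosome 16 (minus strand), and 8 were at 80% or more. Among sites with 50 or more reads in each replicate, the highest, position 87831156, had 98.6% of 146 reads and 98.96% of 192, and its lowest, 87831685, had 11.3% and 11.3%. SLC3A2, the heavy chain that carries SLC7A5 to the membrane, had 6 sites at 41.04% and 44.6% (42.8% ± 1.4). The partners thus differed in number of sites at like gene coverage (191.5 for SLC7A5 and 175.8 for SLC3A2).

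SLC7A1, the CAT1 carrier of arginine and lysine, had the most sites of any member, 31, at 42.4% and 41.5% (41.97% ± 0.64). Its position 29514109 on chromosome 13 (minus strand) was methylated at 98.5% and 98.8%, and 29513848 at 14.02% and 12.8%. SLC7A6, another light chain that pairs with SLC3A2, had 18 sites at 43.6% ± 1.1. SLC7A11, the cystine-glutamate exchanger, was listed with a single site in replicate 2 and none in replicate 1. SLC1A5 had 18 sites at 47.1% and 46.8% (46.9% ± 0.57), only 5 of them in the last 10% of the gene; the others lay within the first kilobase of the annotated gene. Position 46787759 of chromosome 19 (minus strand) had 100% of 90 reads and 97.5% of 81. The glutamine carriers SLC38A2 and SLC38A1 stood at the low end: SLC38A2 had 7 sites at 25.8% and 23.9%, the lowest mean among the 87 members with at least 5 sites. That mean includes the annotated first nucleotide (26.5%) and the A 2 nt further on (15.3%). ABCA2 was close, at 25.4%, and the rank without these start sites was not tested. SLC38A1 had 6 sites at 34.7% ± 2.3. Of the 5 SLC38 genes, 4 were below the level of their coverage class, beside 50% of all genes. So few genes do not set the family apart.

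**Figure D2:**
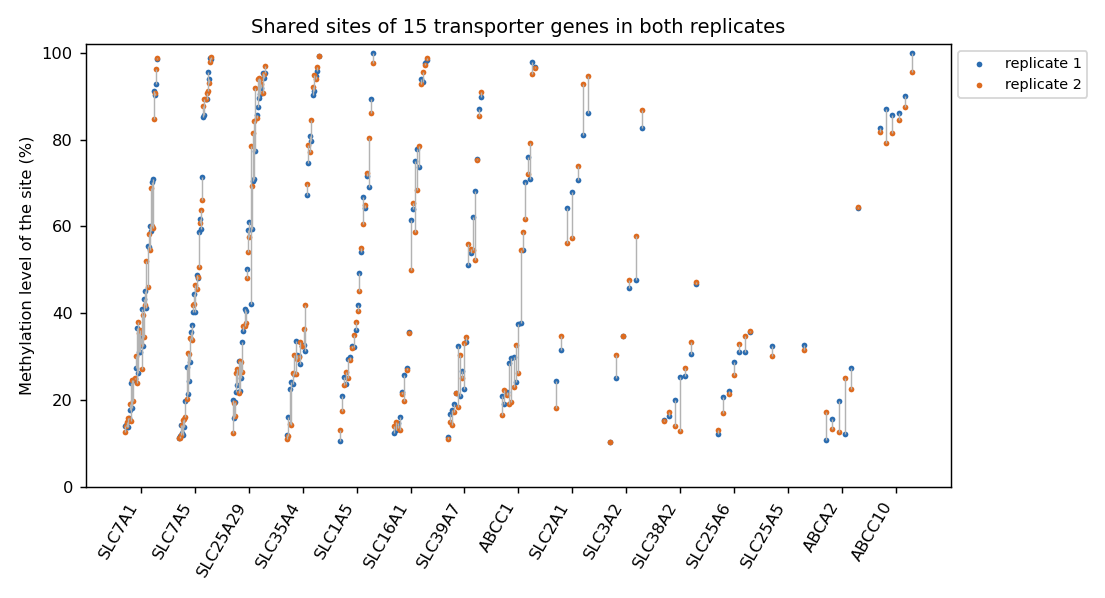
Methylation level (y axis, percent) of every shared site of 15 transporter genes (x axis), sorted by level within a gene, with replicate 1 in blue, replicate 2 in orange and a grey line joining them. Genes such as SLC7A1 and SLC7A5 span nearly the whole range, the sites of SLC25A6 stay under 40%, and the 6 sites of ABCC10 lie above 75% in both replicates.

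Sugar and monocarboxylate carriers had the highest median level of the classes with more than 5 genes, 59.6% over 15 names. Of these, 11 lay above and 4 below the level of their coverage class, each beside 50% of all genes. With all sites of replicate 2 and none of replicate 1, the median was 46.2%. Of 46 annotated genes in these families 17 (36.96%) had a listed site, against 48.6% of all genes. SLC2A1, the glucose carrier GLUT1, had 7 sites at 60.8% and 61.2% (61.01% ± 1.3), against a class median of 37.5%. All 7 lay within 347 nt on chromosome 1 (minus strand). Position 42926626 had 81.03% of 58 reads and 92.9% of 56, and 42926692 had 24.4% and 18.2%. All 5 SLC2 genes with a shared site were above their coverage class, against 50% of all genes, among them GLUT12 (SLC2A12) at 72.9% ± 2.3 over 6 sites. The 5 genes had a median of only 2 sites, from 1 to 7, at a median coverage of 19.2.

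SLC16A1, the lactate carrier MCT1, had 17 sites at 53.1% and 50.9% (51.99% ± 0.75), against a class median of 4 sites and 37.5%. Position 112917455 of chromosome 1 (minus strand) was methylated at 98.3% of 242 reads and 98.8% of 321, and position 112917928 at 12.5% of 599 and 14.03% of 720. SLC5A3, the sodium-coupled myo-inositol carrier, had 22 sites at 60.2% ± 1.1 at a gene coverage of 18.5, where the class median was 4 sites. It overlaps MRPS6 in the annotation, so reads of the overlap could belong to either. SLC45A3 had 5 sites at 68.2% ± 2.4. The antisense RNA SLC5A4-AS1 had 10 at 32.4% ± 1.3.

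Mitochondrial carriers of the SLC25 family, which move nucleotides, phosphate, amino acids and cofactors across the inner membrane, were the largest family. Of 48 annotated genes 36 (75%) had a listed site, against 48.6% of all genes, and 33 names, the antisense RNAs SLC25A5-AS1 and SLC25A21-AS1 included, had 173 shared sites with a median of 3 per gene. The median level was 53.2%. The level was above the coverage class in 24 and below it in 9 (72.7% above, against 50% of all genes). With only sites of at least 20%, 53.1% were above. SLC25A29, which carries basic amino acids, had 28 sites at 55.3% and 58.1% (56.7% ± 0.72), against 5 sites and 44.3% in its class. Its position 100292121 on chromosome 14 (minus strand) had 95.3% and 96.9%. SLC25A37, the iron carrier mitoferrin 1, had 20 sites at 56.6% and 57.5%. SLC25A44, a carrier of branched-chain amino acids, had 8 at 70.8% ± 1.8.

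The most deeply covered members were carriers of the same family. SLC25A5 and SLC25A6 lay below the family median of 53.2%, though above the lowest level in the family, 17.6%. SLC25A5, an ADP/ATP exchanger, had 2 sites on the X chromosome. Position 119469860 had 32.6% of 1665 reads and 31.4% of 1943, and 119469716 had 32.5% and 30.2%. SLC25A6, its paralog, had 7 sites at 25.98% and 25.8% (25.9% ± 0.49), and none above 35.8%. With SLC25A46 and SLC38A3 it was one of 3 of 120 members with at least 3 sites whose sites were all under 40%, beside 6.13% of all such genes. SLC25A3, the phosphate carrier, had 64.99% of 517 reads and 63.2% of 535 at position 98601549 of chromosome 12, and 20.8% and 19.4% at its other site. Both ADP/ATP exchangers have listed processed copies, and reads from a copy and its parent gene may not be told apart.

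**Figure D3:**
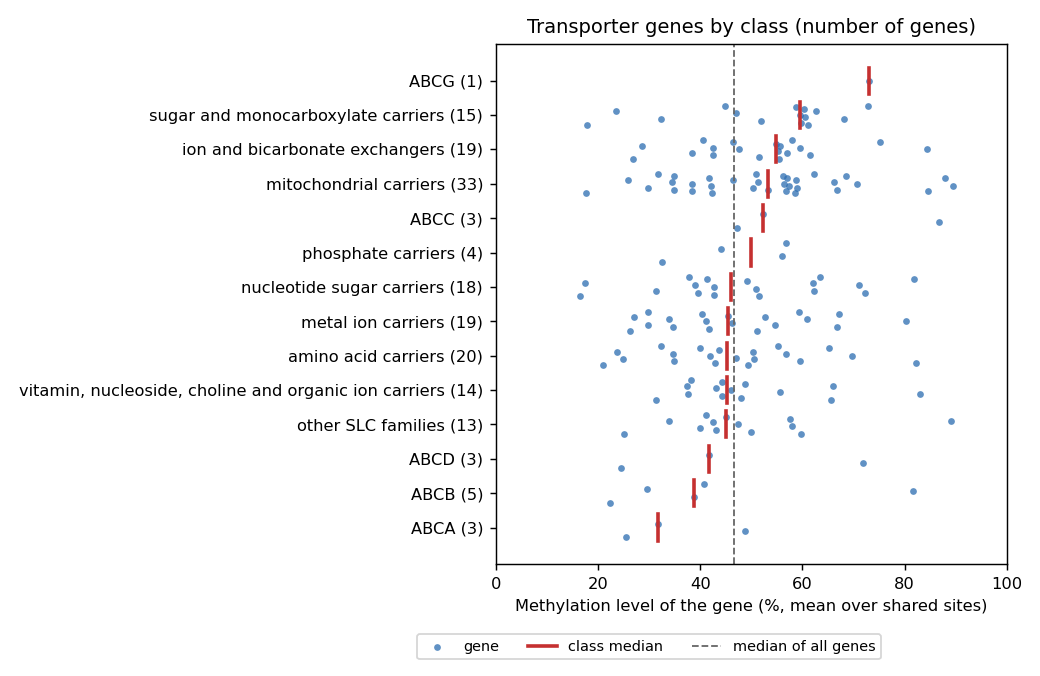
Methylation level of each transporter gene (blue points, x axis in percent, mean over its shared sites) by class (y axis, number of genes in brackets), with class medians in red and the median of all genes as a dashed line (46.6%). Genes of every class with more than 5 members spread over more than 40 percentage points, so the classes overlap widely.

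Nucleotide sugar carriers (SLC35), which supply the Golgi and endoplasmic reticulum, were the second largest family, with 21 of 31 annotated genes listed (67.7%, against 48.6% of all genes). Every SLC35 name was put in this class by its number, and the substrate of each was not checked. The 18 SLC35 names with a shared site had a median of 6.5 sites. The number was above the coverage class in 12 (beside 45.1% of all genes) and below it in 5 (beside 43.6%). Levels split evenly, 9 above and 9 below. SLC35A4 had 22 sites at 50.8% and 51.1% (50.9% ± 0.53). Its position 140567961 on chromosome 5 was methylated at 99.2% of 130 reads and 99.2% of 124, and 140568710 at 11.98% and 11.01%. SLC35C1, the Golgi GDP-fucose carrier, had 8 at 71.1% ± 1.9, with all 26 and 28 reads methylated at position 45811095 of chromosome 11. SLC35F1 had 7 sites at 31.3% ± 2.1, and its only site with at least 50 reads in both replicates had an interval from 54.7 to 70.9%.

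Metal ion carriers, among them the zinc importers of SLC39 and zinc exporters of SLC30, had 22 of 33 annotated genes listed (66.7%, against 48.6% of all genes) and a median level of 45.4% over 19. The importers had a median of 9 sites and the exporters 3, at median coverages of 52.7 and 37.03. SLC39A7 (ZIP7), which releases zinc from the endoplasmic reticulum, had 17 sites at 41.8% and 40.6%, and position 33201566 of chromosome 6 had 89.8% and 90.9%. SLC39A6 (ZIP6) had 6 at 67.2% ± 2.0. SLC39A10 (ZIP10), which pairs with ZIP6, had 9 at 40.4% ± 1.7. SLC30A1 (ZnT1), the exporter of the plasma membrane, had 7 at 60.9% ± 1.9.

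Ion and bicarbonate exchangers had a median level of 54.9% over 19 names, 11 above and 8 below their class, each beside 50% of all genes. SLC9A3 (NHE3), known as the apical sodium-proton exchanger of kidney tubules, had 24 sites at 56.6% and 54.5%, all within 1712 nt at the 3′ end of the gene on chromosome 5 (minus strand). SLC9A3-AS1, transcribed from the opposite strand of the same region, had 22 sites at 55.8% and 54.6%. Their sites did not interleave: those of the antisense RNA began at position 473307, beyond the last site of SLC9A3 at 472874. Conversion was 93.4% and 93.5% in SLC9A3 and 93.7% and 93.6% in SLC9A3-AS1, below the member medians of 97.6% and 97.7%. Conversion was also below these medians in SLC25A29 (95.1% and 94.9%), SLC35A4 (95.5% and 95.6%) and SLC16A1 (95.6% and 95.8%). Whether unconverted adenosine added to the sites or levels of these or other members was not tested. SLC9A3R1, a scaffold protein now named NHERF1 and no carrier, had 5 at 26.9% ± 1.4. SLC12A2, the sodium-potassium-chloride cotransporter NKCC1, had 9 at 59.5% ± 1.9.

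Phosphate carriers had 4 members with a shared site, and SLC20A1 (PiT1) was the lowest of them, with 10 sites at 32.5% and 32.6%. One of its sites was nonetheless methylated at 85.8% of 113 reads and 96.9% of 98 (position 112659540 of chromosome 2). Among carriers of vitamins, nucleosides, choline and organic ions (median 45.2% over 14), the folate carrier SLC19A1 had 12 sites at 48.01% ± 1.4. The nucleoside carrier SLC29A1 (ENT1) had 6 at 38.1% ± 1.3, all within 173 nt. The choline carrier SLC44A1 had 4 at 37.3% ± 1.8. SLC33A1, which brings acetyl-CoA into the endoplasmic reticulum, had 16 at 59.7% ± 1.1.

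Of the ABC transporters, 3 of 12 annotated ABCA genes, 5 of 9 ABCB, 3 of 11 ABCC, 3 of 4 ABCD and 1 of 5 ABCG genes were listed, beside 48.6% of all genes. The drug exporters ABCB1, ABCC4 and ABCG2 and the sterol exporters ABCA1 and ABCG1 had no listed site in either replicate, which gives no bound on their level. ABCC10 (MRP7), a drug exporter, stood out by the even and high level of its shared sites. These 6 sites lay within 424 nt on chromosome 6 and averaged 88.6% in replicate 1 and 85.03% in replicate 2. The lowest, position 43432866, had 82.6% of 23 reads and 81.8% of 33, and the highest, 43432847, had 100% and 95.7% of 23 each. It was the only one of the 120 members with at least 3 shared sites in which every site averaged 80% or more, beside 0.291% of all such genes. With so few reads, sites of low level in ABCC10 could miss the listing limits. Replicate 1 listed 8 sites in ABCC10 and replicate 2 listed 13, so listed sites that were not shared are outside this description.

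ABCC1 (MRP1), the exporter of glutathione conjugates, had 15 sites at 47.7% and 46.6%, from 18.8% at position 16142032 to 96.6% at 16141309 of chromosome 16 among those with at least 50 reads in both. ABCA2, an endolysosomal lipid transporter, was low, with 6 sites at 25.4% ± 1.5, and ABCA3, known for lipid loading of lung surfactant, had 10 at 48.7% ± 1.4. ABCB8, a mitochondrial member, had 8 sites at 40.7% ± 1.9. The porphyrin transporter ABCB6 had 3 sites at 81.7% ± 2.2. ABCD3, a peroxisomal member, had 1 site with 23.1% and 25.9%. ABCD4 had 7 at 41.6% ± 1.8, and ABCG4, the sole ABCG member, 2 at 73.1% ± 4.9.

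The numbered families with at least 5 members with a shared site overlapped in level, and differences between them were not tested. The 5 SLC7 names had a median of 18 sites, from 1 to 31, and levels from 41.97 to 56.8%. The low end of 1 site belongs to SLC7A6OS, which is no carrier. The 9 SLC9 names had a median of 4 sites and levels from 26.9 to 84.3%. They include SLC9A3-AS1, SLC9A3R2 and SLC9A3R1, which are no carriers, and SLC9A3R1 sets the low end of the levels. The 5 SLC16 names, the antisense RNA SLC16A1-AS1 included, had a median of 6 sites, with 3 above and 2 below the level of their coverage class. In SLC39 levels ran from 26.4 to 67.2%, with 5 above and 4 below, and in SLC30 from 29.8 to 60.9%, with 1 above and 4 below. Each of these counts stands beside 50% of all genes. SLC2 was narrow, from 58.7 to 72.9%, and SLC38 wide, from 20.9 to 59.4%. Of members with at least 3 shared sites, 45 of 120 held both a site of 80% or more and one under 20%, and 36.01% of all such genes did.

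Of 910 adjacent pairs of shared sites, 202 lay at most 30 nt apart, and in 127 of these (62.9%) the 95% Wilson intervals of the levels did not overlap, beside 61.4% in all genes. At least 50 percentage points separated 39 pairs (19.3%, interval 14.5 to 25.3), against 19.8% in all genes, a share inside the interval. The examples that follow were chosen after their values were seen. In SLC7A5 position 87831137 had 14.3% and 11.97%, and 15 nt away position 87831152 had 98.8% and 97.9%. In SLC29A1 the sites at 44233698 (12.5% and 12.99%) and 44233702 (86.2% and 88.9%) of chromosome 6 were 4 nt apart. In SLC3A2 the sites at 62888503 (82.7% and 86.7%) and 62888531 (10.4% and 10.5%) of chromosome 11 were 28 nt apart. Mean gaps this large fix the same order in both replicates, so the shared order adds no separate evidence.

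**Figure D4:**
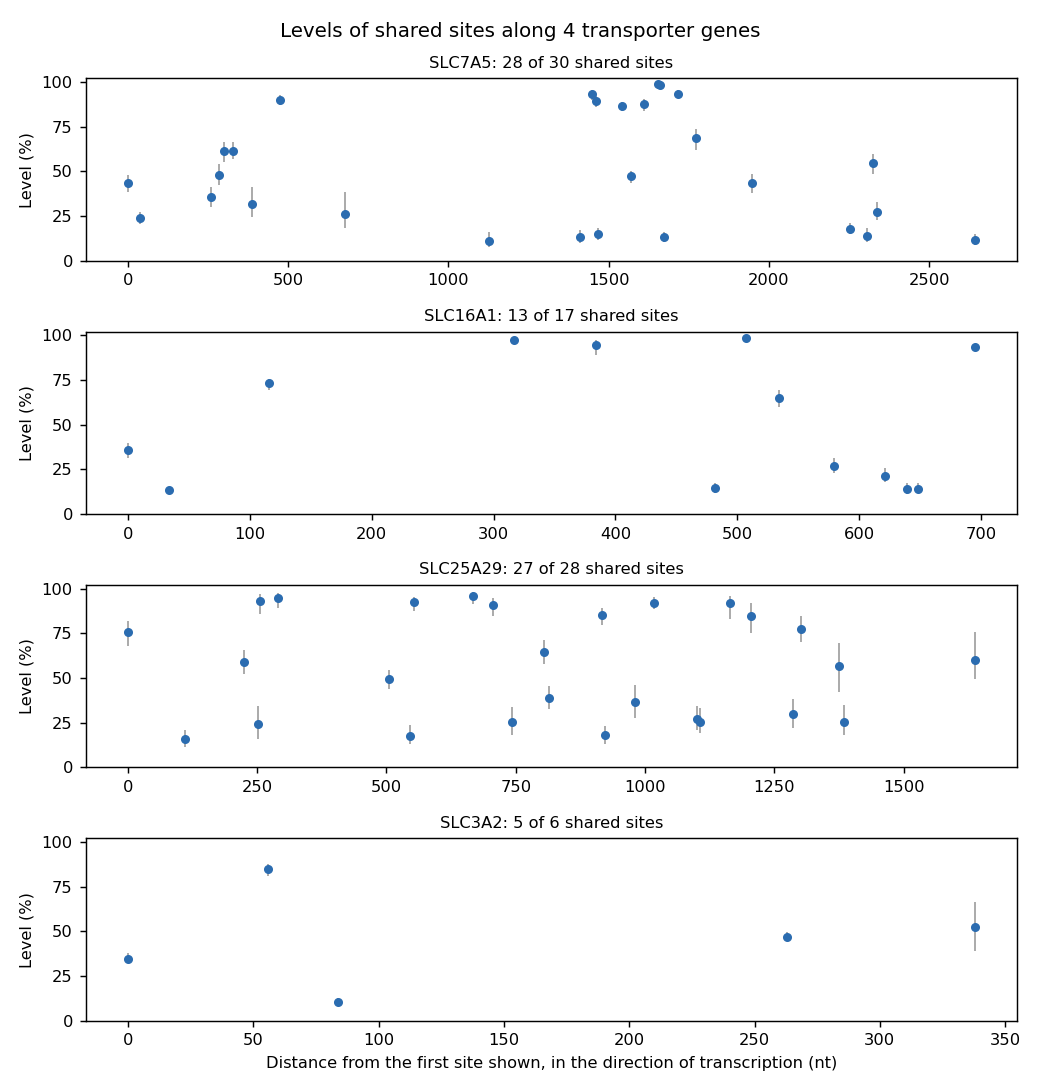
Level of shared sites (y axis, percent, mean of both replicates, bars are 95% Wilson intervals on the summed reads) along the site-rich part of SLC7A5, SLC16A1, SLC25A29 and SLC3A2 (x axis, nt from the first site shown, in the direction of transcription). Each gene has sites above 80% and under 20% in the stretch shown; in SLC3A2 it is 1 of each.

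Position along the gene lay close to that in other genes. Of 1036 shared sites placed in protein-coding members, 44.98% were in the final 10% of the gene as annotated (interval 41.98 to 48.02), against 43.9% in other protein-coding genes. Within 1 kb of the 3′ end lay 22.5% (20.1 to 25.1), against 21.6%. Levels there had a median of 41.1%, against 46.9% elsewhere in members. Other genes had 40.5% and 46.3%. These distances include introns, and spliced positions were not used here. Within 50 nt of the annotated start lay 8 member sites (0.772%, interval 0.392 to 1.52), against 1.18% in other genes. In some members, for example SLC25A29, SLC33A1, SLC19A1 and ABCC10, the last 10% of the annotated gene held no shared site. The annotated SLC25A29 runs on from its last site at 100291150 to 100278567 and overlaps YY1. In SLC19A1 it runs on from 45514909 to 45502517, and the gene overlaps COL18A1. Which 3′ ends the transcripts used was not tested.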

How the data were processed

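GLORI libraries of HEK293T cells were analysed from 2 deposited site lists, 1 for each replicate. Trim Galore 0.6.6, STAR, Bowtie, SAMtools and GRCh38 are named, with no role, per the submitters' processing notes. The sources used here do not name the site caller, its settings or the annotation. The authors deposited, per site, a count of A reads and a count of A plus G reads, per the file headers. The methylation level is deposited as a fraction, and so is the conversion of a gene. Gene coverage is a deposited coverage signal whose computation is not stated, and each site carries a deposited p-value and adjusted p-value, which were not used for selection here.

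Levels were recomputed as A reads over A plus G reads. A site was shared if chromosome, position and strand were in both lists, and a gene took the average of its shared sites. Counts were tested between replicates with Fisher's exact test, two-sided (SciPy 1.17.1), adjusted after Benjamini-Hochberg (statsmodels 0.14.6) over all shared sites. This step was tested on simulated data with changes placed only at deeply covered sites. Recovery at the median depth of member sites was thus not tested. Intervals are 95% Wilson intervals. At shared sites the replicate levels differed by less than the sampling noise, so no SD over replicates is given. Member names were matched to RefSeq, 199 by symbol and the other 4 by synonym. No genome was used, so transcript regions were replaced by the last 10% of the annotated gene, and motifs were read only in RefSeq promoter windows (GRCh38.p14), although the plan had motifs only with a genome.

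Named genes were the 10 members with most shared sites, the 6 highest and 6 lowest levels among members with at least 5 sites, the member with most sites in each family of at least 5 and in each ABC subfamily, and a list of well known transporters. Named sites were the highest and lowest with at least 50 reads in both replicates, or of all sites where none had 50. Others were chosen after their values were seen, and some members are not reported here by name. Members, classes and lists were chosen with earlier results of these data known. Alternatives were minimum depths of 30 and 50 reads, a minimum level of 20%, each replicate alone, summed reads, 20 coverage classes and narrower member lists, one of which, without names that are not carriers, was added after the data were seen.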

Additional observations from a re-analysis of the deposited data

How the results depend on the processing

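Over 23 results and 9 alternative settings, 21 of 147 values moved. A reversal of direction was not scored. With replicate 2 alone the median level of members (41.98%) lay below that of all genes (42.3%), whereas the reported one (48.3%) lay above it (46.6%). A value counted as moved if a count changed by more than 1.5 times, or a median or share left the 95% interval of the reported one. These intervals are wide for small classes, so large shifts lay inside them: ABCB had a median of 25.97% at 30 reads (38.8% reported), ABCA 44.7% with sites of at least 20% (31.8%), phosphate carriers 36.7% at 30 reads (50.02%), and the motif share was 50% with sites of at least 20% (33.3%). No paired analysis was possible because the labels hold 1 group. Requiring at least 50 reads in each replicate left 100 members and 457 sites by construction, a median level of 41.2% (37.97% in all genes), a median of 3 sites and 43% of members above the site median of their coverage class. At that depth other SLC families had a median of 27.9% and vitamin, nucleoside, choline and organic ion carriers 37.7%. At 30 reads the median level was 44.4% (41.3% in all genes), the median number of sites 3, and the medians of nucleotide sugar carriers and other SLC families 39.1% and 40.2%. Keeping only sites of at least 20% raised by construction the median of members to 54.7% (53.6% in all genes), of amino acid carriers to 51.2% and of mitochondrial carriers to 57.4%, and 53.1% of mitochondrial carriers then lay above their coverage class. With all sites of a single replicate, the median level ranged from 41.98% to 45.7% in members (42.3% to 43% in all genes), from 45.9% to 54.5% in ABCC, from 39.2% to 41.04% in amino acid carriers, from 41.2% to 49.97% in mitochondrial carriers, from 41.1% to 44.9% in other SLC families and from 46.2% to 56.1% in sugar and monocarboxylate carriers. The cause of the shifts with depth and with the replicate was not tested. Classes of few genes and sites of 15 to 50 reads carry wide counting errors, and a listed site needs a minimum of A reads, so sites of low level are missed in thinly covered members.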

Other observations

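Names of processed copies of transporter genes, which the naming rule left out, also held methylated sites. Of 22 such names, 14 had shared sites, and 10 of these were copies of SLC25 genes, with 17 sites. The copy SLC25A6P2 shared 2 distances between sites with its parent: 144 and then 24 nt separated 3 of its sites at 20.3%, 31.3% and 24.5%, and the same distances separated sites of SLC25A6 at 18.9%, 32.9% and 21.7%. The next distances differed, 78 nt in SLC25A6P2 against 96 nt in SLC25A6. Reads from a copy and its parent may not be told apart, and their assignment was not tested.

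The 33 members without a shared site had 68 listed sites in all. The 209 sites that replicate 2 did not list had a median of 19.4% at a median of 30 reads, and the 393 that replicate 1 did not list had 23.3% at 28 reads.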
